A study of Mus musculus with 16 samples.

Results

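The insulin-like growth factor (IGF) genes read here encode the ligands Igf1 and Igf2, the receptors Igf1r and Igf2r, and the binding proteins Igfbp2 to Igfbp7. They were chosen by gene symbol and make up 10 of the 16593 genes named on the array. The 10 genes were read by 14 of the 25697 probes, and 13 of these 14 passed the filter for testing, among 12078 probes tested in all. The 14th probe, ILMN_2634286 for Igfbp7, was detected on no array and is covered by the other Igfbp7 probe.

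Total RNA was measured on 16 single-colour Illumina bead arrays of mouse embryonic fibroblasts, 8 from wild-type (Wt) cells and 8 from Hmgb1-/- (KO) cells, for which the labels name no Cre or transgene. Hmgb1 encodes an abundant DNA-bending chromatin protein. Cells of each genotype were labelled as cycling (3 Wt and 3 KO arrays), G1 (3 and 3) or S phase synchronized (2 and 2), which makes 6 groups. Each Wt and KO pair was made from the litter of 1 Hmgb1+/- female mated with an Hmgb1+/- male, with 3 such females in all, and no culture went beyond passage 3. The 8 pairs therefore go back to 3 females and are not 8 independent replicates. The way in which G1 and S cells were obtained, the embryos' age and the strain are not given in the labels used here, so a phase and the treatment that led to it cannot be told apart.

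IGF1 and IGF2 are secreted peptides that signal for growth and survival through the tyrosine kinase receptor IGF1R. IGF2R, also the mannose 6-phosphate receptor, carries IGF2 to lysosomes and acts as a sink for it. The IGF binding proteins hold both ligands with high affinity outside the cell, prolong their life and either block or aid their access to IGF1R. IGFBP7 binds IGFs only weakly. Fibroblasts and other mesenchymal cells are a main source of several of these proteins, and the Igf2 and Igf2r genes are imprinted in the mouse.

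Fibroblast identity was checked with 9 genes (among them the collagens Col1a1, Col1a2 and Col3a1), of which all 9 were detected on every array of 5 groups and 8 on every array of KO cycling. The Hmgb1 probe was detected on 1 of 16 arrays, with log2 values from 4.48 to 5.74, so it could not check the genotype labels. KO_G1 number 1, Wt_cycling number 3 and Wt_G1 number 1 stood apart from their groups (SD of the log2 differences to the other arrays 1.12 and 1.13, 0.71 and 0.79, and 0.72 and 0.73). Of the macrophage genes, Adgre1 and Lyz2 were detected on all 16 arrays, Ptprc on some and Itgam on 1. Their summed level ran from 3177 to 8890 on the linear scale in cycling cells, from 4044 to 26910 in G1 and from 17220 to 21770 in S. Arrays of a group that shared a detected sex-linked gene were closer to each other (SD of the log2 differences 0.23 to 0.41) than to the third array (0.48 to 1.13), which matters for how many independent samples each group holds.

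All levels below are log2 of the probe intensity after background correction and quantile normalization, and all differences are log2 differences with their standard error (SE). Levels of different probes are not comparable with each other. A probe counts as called where limma's Benjamini-Hochberg adjusted p, taken over the 12078 probes, is under 0.05. Detection means a detection p-value under 0.01 on that array.

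A group of 3 binding protein genes carries most of what follows: Igfbp5 for the genotype difference, and Igfbp3 and Igfbp4 for the differences between phases. Their promoter windows, 250 bases before to 50 after the annotated start, are shown because the results rest on these genes more than on any other member. They are RefSeq sequences on GRCm38.p6, written 5′ to 3′ on the gene's own strand, for Igfbp5 at chr1:72874816-72875115 (minus strand), for Igfbp3 at chr11:7213874-7214173 (minus strand) and for Igfbp4 at chr11:99040994-99041293 (plus strand). Capitals mark the TATA box letters TATAAA.
Igfbp5: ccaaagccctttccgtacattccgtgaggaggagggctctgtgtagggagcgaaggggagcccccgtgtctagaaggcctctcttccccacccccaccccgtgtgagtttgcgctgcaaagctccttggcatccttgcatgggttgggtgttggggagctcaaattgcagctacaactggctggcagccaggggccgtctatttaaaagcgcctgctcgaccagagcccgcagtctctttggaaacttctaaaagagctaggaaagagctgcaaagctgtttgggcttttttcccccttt
Igfbp3: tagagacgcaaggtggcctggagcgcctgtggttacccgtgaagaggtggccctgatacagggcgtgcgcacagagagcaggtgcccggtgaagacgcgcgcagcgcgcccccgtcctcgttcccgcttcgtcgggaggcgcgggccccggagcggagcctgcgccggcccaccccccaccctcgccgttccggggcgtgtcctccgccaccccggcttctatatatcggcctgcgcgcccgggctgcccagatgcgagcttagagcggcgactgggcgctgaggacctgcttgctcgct
Igfbp4: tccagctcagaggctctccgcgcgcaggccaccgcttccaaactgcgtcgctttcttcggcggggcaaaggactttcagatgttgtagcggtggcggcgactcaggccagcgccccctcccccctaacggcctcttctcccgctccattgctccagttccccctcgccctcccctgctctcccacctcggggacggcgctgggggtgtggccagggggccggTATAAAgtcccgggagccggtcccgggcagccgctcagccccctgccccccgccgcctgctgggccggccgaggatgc

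The windows were searched on both strands for TATAAA as the TATA box motif, CCAAT as the motif of that name, GGGCGG as the GC box, CACGTG as the E-box, GTAAACA as a FOXO motif and TGANTCA as the AP-1 motif, none of which overlaps another in these windows. The Igfbp4 window held TATAAA with its first base at -28 from the start, and the Igfbp5 and Igfbp3 windows held none of the 6 motifs. Over the 32851 windows of the RefSeq table, TATAAA was in 13.6%, CCAAT in 37.4%, GGGCGG in 35.7%, CACGTG in 7.2%, GTAAACA in 3.6% and TGANTCA in 7.8%. The windows also differ in base composition, with 56.3% GC and 10 CpG in Igfbp5, 71.7% and 37 in Igfbp3 and 71.3% and 27 in Igfbp4, against medians of 52.7% and 7 over all windows. Igfbp5 lies next to Igfbp2 on chromosome 1, with no annotated gene between them. No binding or methylation was measured here, so the windows are a description only.

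The first question of the design is which genes differ between cells with and without Hmgb1. Among the members, Igfbp5 was lower in KO cells in all 3 phases, and it was the only one of the 13 probes past the threshold for the mean of the phases. The Igfbp5 protein is a secreted and matrix-bound IGF carrier of bone, muscle and fibroblasts. Values of Igf2, both Igfbp4 probes and Igfbp3 were also lower in KO cells in at least 7 of 8 pairs, without passing the threshold. Pair counts and overlap of arrays were read for the member probes only. With no share over all tested probes beside them, they describe single probes and are no result about the members. The receptors, Igfbp2 and Igfbp7 lay within 0.17 of no difference on average.

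**Figure D1:**
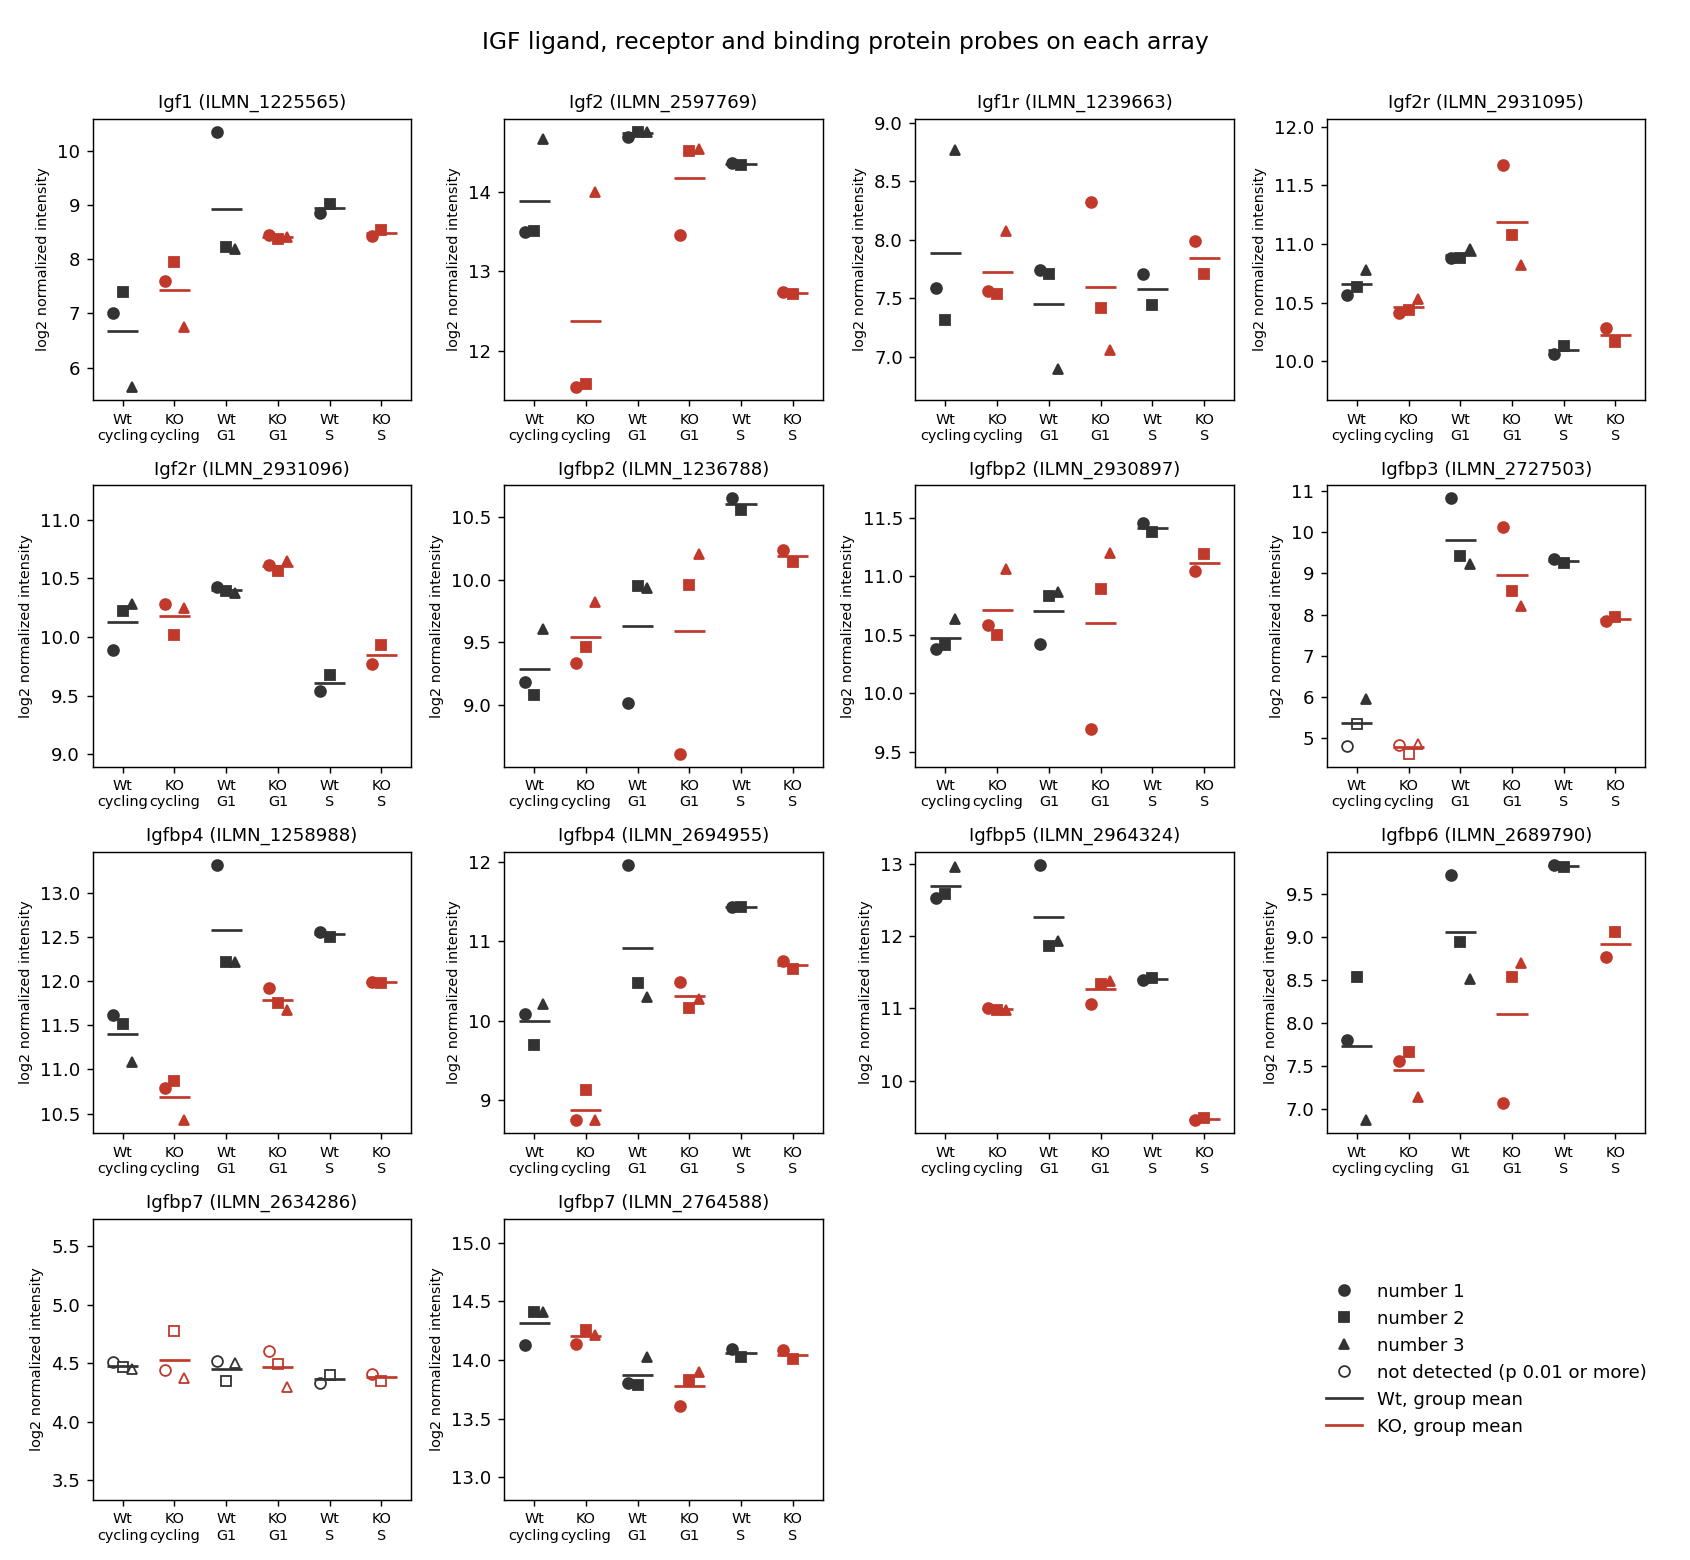
Log2 normalized intensity of each of the 14 IGF probes (y axis) on the 16 arrays, by group (x axis); circles, squares and triangles are the arrays numbered 1, 2 and 3, bars are group means and open symbols mark arrays without detection. Igfbp5 shows Wt above KO in every phase, and Igfbp3 shows cycling values of 4.61 to 5.95 against 7.84 to 10.83 in G1 and S.

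In Wt cells the Igfbp5 level was 12.53, 12.58 and 12.96 on the cycling arrays, 12.98, 11.86 and 11.93 in G1, and 11.39 and 11.42 in S. In KO cells it was 11.01, 10.98 and 10.98 on the cycling arrays, 11.07, 11.34 and 11.38 in G1, and 9.46 and 9.49 in S. The genotypes did not overlap in any phase, and the lowest Wt array, 11.39 in S, lay just above the highest KO array, 11.38 in G1. Averaged over the phases, Igfbp5 fell by 1.54 ± 0.16 (SE) in KO cells, a 2.91-fold difference, in 8 of 8 pairs (limma adjusted p = 0.000122). It was the 1 member probe called among 13, where 227 of 12078 probes (1.88%) were called, 97 higher and 130 lower in KO cells. The member median was -0.07 and that of all tested probes 0.00.

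Within single phases, the Igfbp5 difference was -1.70 ± 0.25 in cycling cells (limma adjusted p = 0.0109), where 37 probes (0.306%) were called. It was -1.93 ± 0.31 in S (limma adjusted p = 0.0184), where 28 probes (0.232%) were called. In G1 it was -0.996 ± 0.25 and did not pass (limma adjusted p = 0.178), where again 37 probes (0.306%) were called and no member was. An unadjusted limma p under 0.05 in G1 was held by 1099 of 12078 probes and by 2 of the 13 member probes. The G1 pairs were uneven, with Igfbp5 at -1.92 in pair 1 and at -0.52 and -0.55 in pairs 2 and 3. Wt_G1 number 1 had the highest Igfbp5 level of all 16 arrays, and without it the G1 difference was -0.63 ± 0.18 and the mean of the phases -1.42 ± 0.11 (limma adjusted p = 0.278 and 4.29e-05). The test of the difference between phases in the genotype effect called 1 probe (0.00828%) for G1 against cycling, none (0%) for S against G1 and none (0%) for S against cycling, and no member in any of the 3. For S against G1 the Igfbp5 effect differed by -0.93 ± 0.40 (limma unadjusted p = 0.0365, adjusted p = 0.9999), so a stronger effect in S than in G1 was not shown. At an unadjusted p under 0.05 these 3 tests held 1139, 182 and 557 probes, of which 0, 1 and 0 were members.

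Several limits apply to the Igfbp5 call. With the arrays of a group that share a sex-linked gene averaged, an alternative chosen after the data were seen, the difference was -1.64 but was no longer called (limma adjusted p = 0.367), nor was it without the arrays numbered 2 (limma adjusted p = 0.358). The averaging also ended the cycling and S calls (limma adjusted p = 0.9993 and 0.9999), as did median scaling in place of quantile normalization (limma adjusted p = 0.222 and 0.138). The cycling call was lost without KO_cycling 1 or KO_cycling 2 (limma adjusted p = 0.0654 and 0.0686), and the S call was lost without any of its 4 arrays and with the Wt and KO pairs as a block (limma adjusted p = 0.0587).

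The ligand Igf2, a main fetal growth factor, varied widely between arrays of a group. Its level was 13.49, 13.51 and 14.66 in Wt and 11.55, 11.60 and 14.00 in KO cycling cells, 14.68, 14.75 and 14.75 in Wt and 13.46, 14.50 and 14.53 in KO G1 cells, and 14.36 and 14.33 in Wt and 12.74 and 12.72 in KO S cells. KO values lay below those of the paired Wt array in 8 of 8 pairs, and the genotypes overlapped in cycling cells only. The mean difference of -1.23 ± 0.34 was not called without a block (limma adjusted p = 0.0907) and was called with the Wt and KO pair within a phase as a block, at -1.23 ± 0.18 (limma adjusted p = 0.00696). Of 31 alternatives, 6 called it and 25 did not. In both genotypes the cycling array numbered 3 was above the arrays numbered 1 and 2 by more than 1 log2 unit. Those arrays of numbers 1 and 2 shared the detected Y-linked gene Eif2s3y and array 3 had Xist, and with the sex-linked gene as a block, an alternative added after the data were seen, the mean difference was called (-1.23 ± 0.21, limma adjusted p = 0.00496). Without KO_cycling 3 the cycling difference was -2.31 ± 0.37 and was called (limma adjusted p = 0.0188). That fit kept the paired Wt_cycling 3, at 14.66, so the genotypes were no longer balanced for the sex-linked gene. In cycling pairs 1 and 2 the differences were -1.94 and -1.91.

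Igf1, the ligand that mediates much of growth hormone's action, showed no steady genotype difference. Its KO minus Wt values were 0.60, 0.55 and 1.10 in the cycling pairs, -1.90, 0.16 and 0.21 in the G1 pairs and -0.43 and -0.48 in the S pairs, 5 above and 3 below 0. The mean was -0.07 ± 0.34 (limma adjusted p = 0.977). The G1 value of -1.90 came from pair 1, in which the Wt array also had the highest Igf1 level of all 16, 10.35.

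Among the receptors no probe was called for genotype. Igf1r had a mean difference of 0.08 ± 0.24 with 5 of 8 pairs higher in KO cells, and the Igf2r probes had 0.07 ± 0.12 (4 of 8 pairs) and 0.17 ± 0.10 (6 of 8 pairs), with limma adjusted p from 0.570 to 0.961. The 2 Igf2r probes gave the same order of phases and differed on KO_G1 number 1, at 11.67 for ILMN_2931095 against 11.08 and 10.82 on the other KO G1 arrays, while ILMN_2931096 read 10.61 there against 10.56 and 10.65.

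Of the other binding proteins, Igfbp4, a carrier cut by the protease PAPP-A to free its ligand, read below Wt in the KO member of 8 of 8 pairs on both of its probes. For ILMN_1258988, Wt arrays read 11.61, 11.51 and 11.09 when cycling, 13.32, 12.22 and 12.22 in G1, and 12.56 and 12.50 in S. The KO arrays read 10.79, 10.86 and 10.42 when cycling, 11.92, 11.75 and 11.67 in G1, and 11.99 and 11.98 in S. The genotypes were apart within every phase on this probe, but not across phases. On the other probe, ILMN_2694955, they overlapped in G1, where KO_G1 number 1 read 10.48 and Wt_G1 number 3 read 10.29, and the pair 3 difference was -0.02. The mean differences of -0.69 ± 0.17 and -0.82 ± 0.21 on the 2 probes missed the threshold (limma adjusted p = 0.0544 and 0.0682) and passed it with the pair block (limma adjusted p = 0.0243 and 0.0429) and without Wt_G1 number 1 (limma adjusted p = 0.0264 and 0.0140). They missed it in 19 and 25 of 31 alternatives.

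Igfbp3, the main carrier of IGFs in blood and a product of fibroblasts, read below Wt in the KO member of 7 of 8 pairs. In G1 its pair differences were -0.71, -0.85 and -1.02, and in S they were -1.51 and -1.31. The mean difference of -0.96 ± 0.30 was not called (limma adjusted p = 0.142) and was called with the pair block (-0.96 ± 0.14, limma adjusted p = 0.00687). It was not called in 26 of 30 alternatives. It includes cycling arrays on which Igfbp3 was mostly not detected, so no fold between the genotypes is given there.

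Igfbp6, which prefers IGF2 to IGF1, had a mean difference of -0.72 ± 0.29 (limma adjusted p = 0.286), with 6 of 8 pairs lower in KO cells. Its largest pair difference, -2.65, came from G1 pair 1 and KO_G1 number 1. Igfbp2 was at -0.07 ± 0.23 and -0.06 ± 0.19 on its 2 probes, with 5 of 8 pairs higher on each. Igfbp7 was at -0.07 ± 0.10, with 6 of 8 pairs lower. With the pair block, 5 of 13 member probes were called for the mean of the phases (Igf2, Igfbp3, both Igfbp4 probes and Igfbp5), where 398 of all tested probes were, against 1 and 227 without it.

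**Figure D2:**
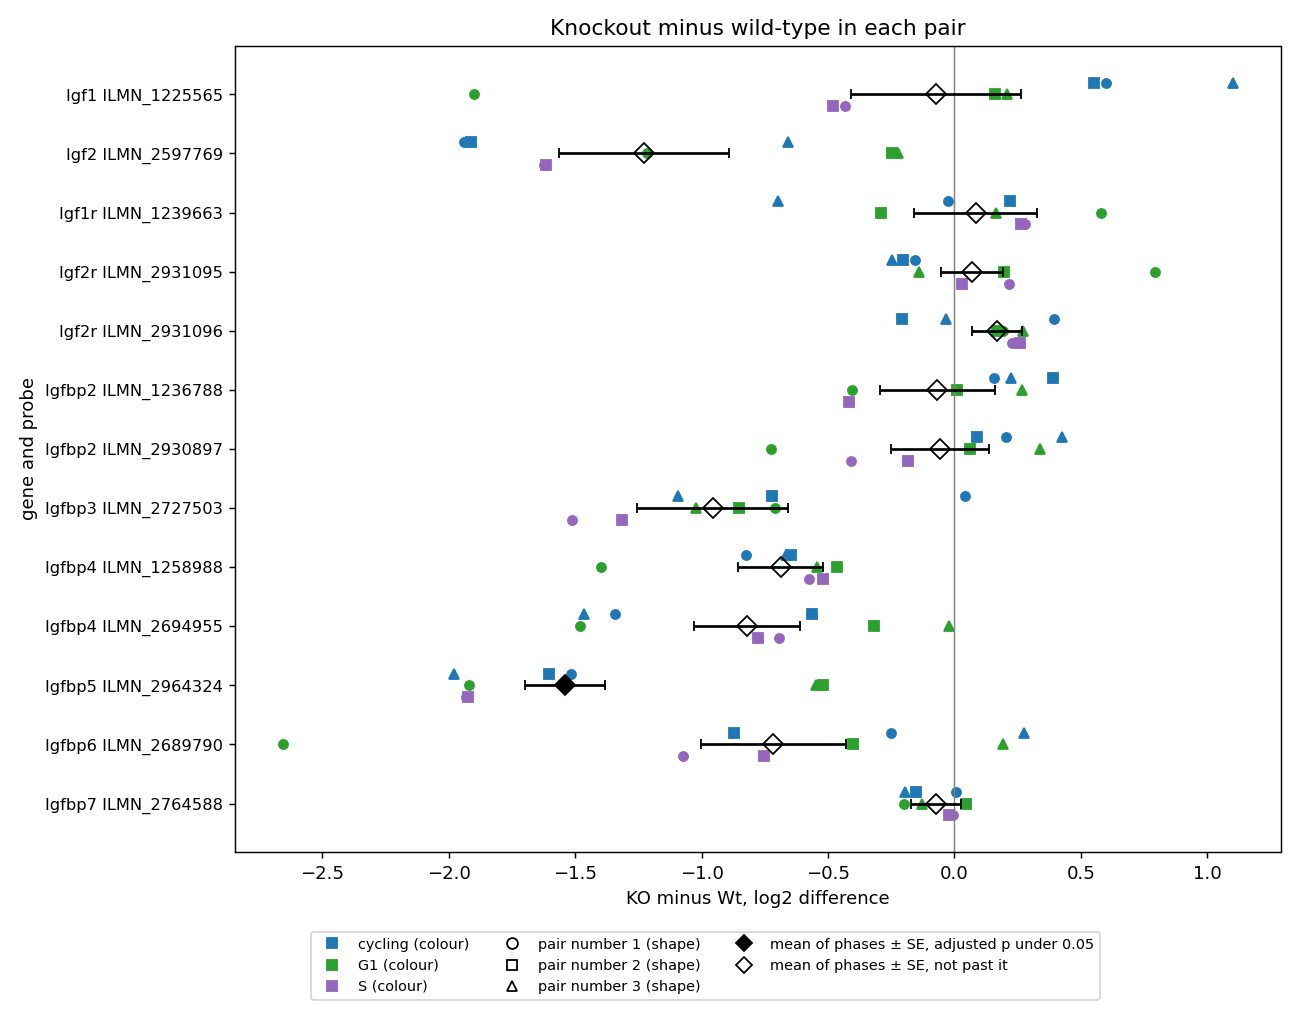
KO minus Wt log2 difference (x axis) of the 13 tested probes in each of the 8 pairs, with colour for the phase and shape for the pair number; diamonds are the mean of the phases ± SE from limma. Igfbp5 lies between -1.98 and -0.52 in every pair and has the only filled diamond, while Igf2 and both Igfbp4 probes are below 0 in 8 of 8 pairs with open diamonds.

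Beside the genotype differences, marker genes of fibroblasts and of other cells were read. In KO cells the endothelial and stromal gene Eng fell by 1.16 ± 0.22 (limma adjusted p = 0.0124) and the keratin Krt14 fell by 1.0005 ± 0.15 (limma adjusted p = 0.00248). No epithelial gene was detected throughout a KO group, so Krt14 passed the filter for testing only through Wt groups. For Krt14 the filter and this test are therefore not independent. Of the 9 fibroblast markers tested, only the growth factor receptor gene Pdgfra was called, and it fell by 1.32 ± 0.31 (limma adjusted p = 0.0486). The endothelial list of 5 genes summed to 177.3 to 239.0 on the Wt and 122.6 to 171.6 on the KO arrays, and its defining genes Cdh5, Kdr and Pecam1 were detected on no array. The summed fibroblast list was 56640 to 63740 in Wt and 42800 to 52590 in KO cycling cells. In G1 it was 61240 to 92290 in Wt and 60000 to 88720 in KO cells. In S it was 76460 to 81110 in Wt and 79320 to 79920 in KO cells. In bulk RNA, fewer cells of a type and less RNA per cell cannot be told apart, and the part of other cells in the Igfbp5 difference was not tested.

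The second question of the design is how the culture states differ. Between cycling and G1 cells, averaged over the genotypes, 9 of 13 member probes were called, 8 higher and 1 lower in G1, where 2393 of all tested probes (19.8%) were called, 1173 higher and 1220 lower. Igfbp3 had the largest difference among the members, and Igf1, Igf2, Igf2r, Igfbp4 and Igfbp6 rose with it. Igfbp7 fell, and Igf1r, Igfbp2 and Igfbp5 were not called. The member median was 0.49 and that of all tested probes -0.05.

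Igfbp3 read 4.79, 5.33 and 5.95 in Wt and 4.83, 4.61 and 4.86 in KO cycling cells and was detected on only 1 of these 6 arrays, Wt_cycling 3. In G1 it read 10.83, 9.42 and 9.23 in Wt and 10.12, 8.56 and 8.20 in KO cells, and in S 9.35 and 9.24 in Wt and 7.84 and 7.93 in KO cells. No G1 or S array came near the cycling range. As a lower limit, each cycling array was given the dimmest detected signal on it, or the Igfbp3 reading if brighter. On that basis Igfbp3 was at least 16.7-fold higher in G1 than in cycling cells of the Wt genotype, and for the KO genotype the rise was at least 11.2-fold. For S against cycling the limits were at least 11.6-fold in Wt and at least 5.33-fold in KO cells. The fitted G1 minus cycling difference was 4.33 ± 0.34 (limma adjusted p = 2.03e-06), and that for S minus cycling was 3.53 ± 0.38 (limma adjusted p = 0.000124), both with the undetected cycling values at background. Igfbp3 passed the filter for testing only through its G1 and S groups, where it was high. For this probe the filter and these tests are therefore not independent.

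Igfbp4 rose in G1 on both probes, by 1.14 ± 0.19 and 1.18 ± 0.24 (limma adjusted p = 0.00101 and 0.00353). The second probe, ILMN_2694955, read 10.09, 9.69 and 10.21 in Wt and 8.74, 9.12 and 8.74 in KO cycling cells, against 11.96, 10.48 and 10.29 in Wt and 10.48, 10.16 and 10.27 in KO G1 cells. Each genotype's G1 arrays were above its own cycling arrays. Igfbp6 rose by 0.99 ± 0.33 (limma adjusted p = 0.0472, and 0.0949 with the pair as a random block, where it was not called), from 7.81, 8.54 and 6.87 in Wt and 7.56, 7.67 and 7.14 in KO cycling cells to 9.73, 8.95 and 8.51 in Wt and 7.07, 8.54 and 8.71 in KO G1 cells. KO_G1 number 1 lay below all KO cycling arrays, and the Wt ranges met at 8.51 in G1 and 8.54 in cycling cells. Igfbp7 fell by 0.43 ± 0.11 (limma adjusted p = 0.0151), with G1 arrays from 13.61 to 14.03 and cycling arrays from 14.13 to 14.41.

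Of the ligands, Igf1 rose in G1 by 1.61 ± 0.38 (limma adjusted p = 0.00906). It read 7.01, 7.40 and 5.64 in Wt and 7.60, 7.95 and 6.74 in KO cycling cells, against 10.35, 8.22 and 8.20 in Wt and 8.45, 8.38 and 8.40 in KO G1 cells. All 6 G1 arrays were above all 6 cycling arrays. Igf2 rose by 1.31 ± 0.38 (limma adjusted p = 0.0265), with the cycling and G1 arrays overlapping. On arrays with Xist detected, Igf2 read 14.66 in cycling against 14.75 and 14.75 in G1 Wt cells. In KO cells it read 14.00 against 14.50 and 14.53 there. On arrays with Eif2s3y detected it read 13.49 and 13.51 against 14.68 in Wt, and 11.55 and 11.60 against 13.46 in KO cells. The Igf2 call held with the sex-linked gene as a block and was lost in 13 of 27 alternatives. The Igf2r probes rose by 0.49 ± 0.14 and 0.35 ± 0.11 (limma adjusted p = 0.0242 and 0.0454) without overlap, the second not called with the pair block (limma adjusted p = 0.0857), and the signalling receptor Igf1r was at -0.28 ± 0.28 (limma adjusted p = 0.517).

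Between G1 and S cells, 3 of 13 member probes were called and all 3 fell in S, where 1375 of all tested probes (11.4%) were called, 691 higher and 684 lower. These were Igfbp5, by 1.32 ± 0.20 (limma adjusted p = 0.00163), and both Igf2r probes, by 0.89 ± 0.16 and 0.77 ± 0.13 (limma adjusted p = 0.00377 and 0.00258). Igf2r (ILMN_2931095) read 10.88, 10.88 and 10.96 in Wt and 11.67, 11.08 and 10.82 in KO G1 cells, against 10.06 and 10.13 in Wt and 10.28 and 10.16 in KO S cells. The S arrays were below every G1 array on both Igf2r probes. Igfbp5 fell within each genotype, by 0.86 ± 0.28 in Wt and 1.79 ± 0.28 in KO cells, although the Wt S arrays lay just above the KO G1 range. The member median was 0.08 and that of all tested probes 0.04.

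Between cycling and S cells, 6 of 13 member probes were called, 5 higher and 1 lower in S, where 980 of all tested probes (8.11%) were called, 564 higher and 416 lower. Beside Igfbp3, Igf1 rose by 1.65 ± 0.42 (limma adjusted p = 0.0300, and 0.0529 with the pair block, where it was not called), Igfbp4 by 1.21 ± 0.21 and 1.63 ± 0.27 (limma adjusted p = 0.00380 and 0.00234) and Igfbp6 by 1.78 ± 0.36 (limma adjusted p = 0.00980). Igfbp5 fell by 1.40 ± 0.20 (limma adjusted p = 0.000886). Igfbp2 read 10.66 and 10.56 in Wt and 10.24 and 10.14 in KO S cells on ILMN_1236788, above all 6 cycling arrays (9.08 to 9.83), and its difference of 0.98 ± 0.29 just missed the threshold (limma adjusted p = 0.0513). The member median was 0.67 and that of all tested probes -0.01. The comparisons of S with G1 and with cycling share the S arrays, and those of G1 and of S with cycling share the cycling arrays.

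**Figure D3:**
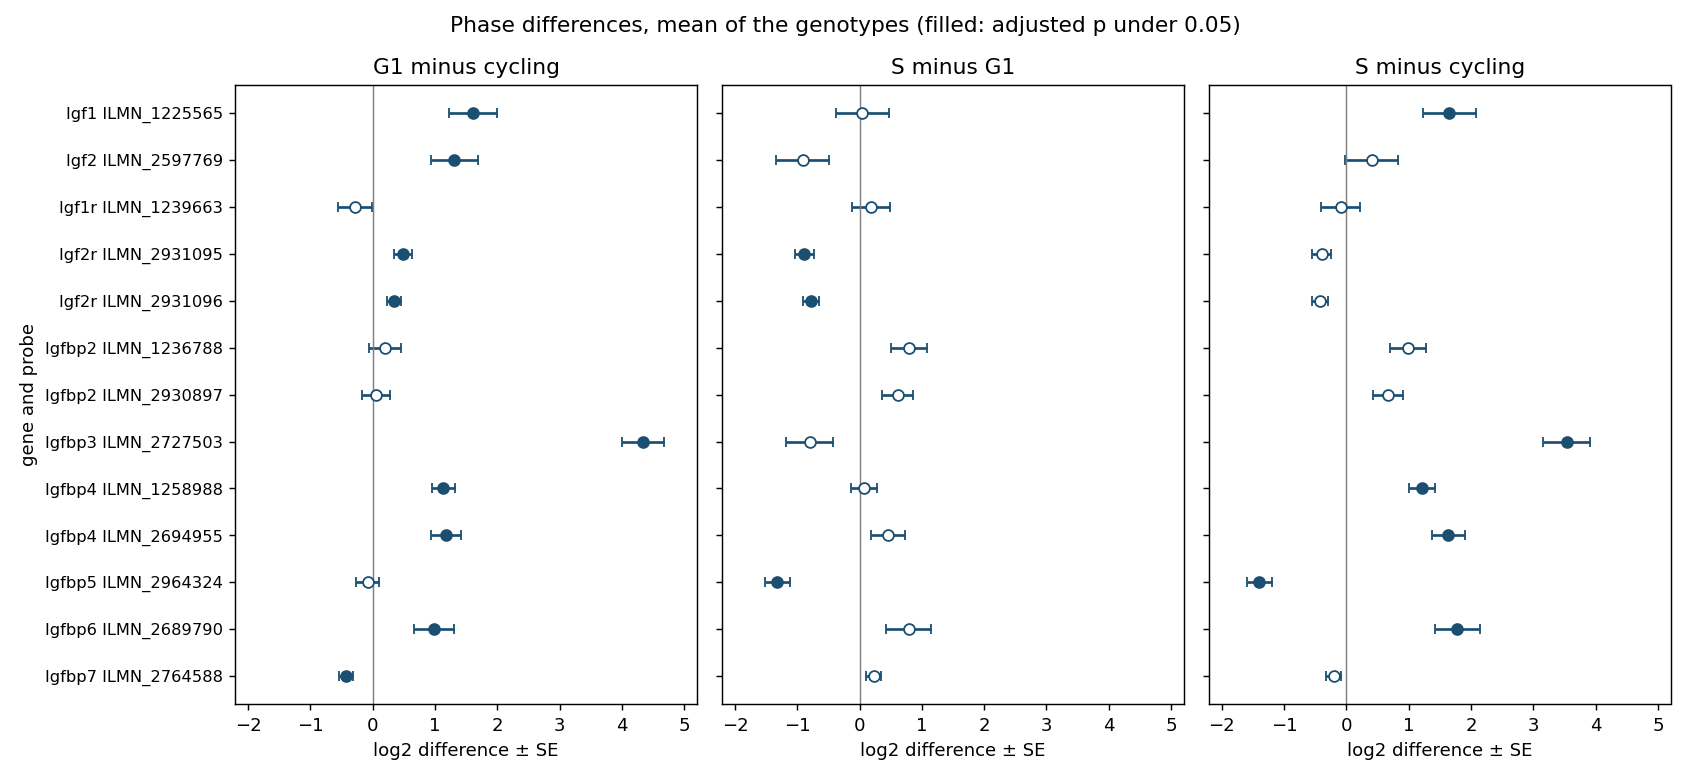
Log2 difference ± SE from limma (x axis) of the 13 tested IGF probes between culture states, averaged over the genotypes, in 3 panels for G1 minus cycling, S minus G1 and S minus cycling; filled points passed an adjusted p of 0.05. Igfbp3 stands at 4.33 in the left and 3.53 in the right panel, and Igfbp5 is near 0 in the left panel and at -1.32 and -1.40 in the others.

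The phases overlap in part with the slide. Slide 1 held all cycling arrays and the G1 arrays numbered 3, and slide 2 the other G1 arrays and all S arrays. The phases also differ in the detected sex-linked gene. Eif2s3y was detected on the cycling arrays numbered 1 and 2, the G1 arrays numbered 1 and all S arrays, and Xist on the others. With the slide as a block, 1 of 13 member probes was called for G1 against cycling (Igfbp3, 3.65 ± 0.42, limma adjusted p = 0.000288), where 761 of all probes were called against 2393 without the block, and none for S against cycling (Igfbp3, 2.51 ± 0.55, limma adjusted p = 0.100), where 40 of all probes were called against 980. Within slide 1 the G1 array numbered 3 exceeded the mean cycling array in Igfbp3 by 3.87 in Wt and 3.44 in KO cells, in Igf1 by 1.51 and 0.97 and in Igfbp4 (ILMN_1258988) by 0.81 and 0.98, with no test. The 3 S minus G1 calls held with the slide as a block (limma adjusted p = 0.00559 for Igfbp5, 0.00660 and 0.00892 for Igf2r). Within slide 2, Igfbp5 was at -1.02 in Wt and -1.73 in KO cells in S against the G1 arrays numbered 1 and 2, and Igf2r (ILMN_2931095) at -0.78 and -1.15.

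Marker genes of fibroblasts and of other cells were set beside the phase differences. Of the 3 macrophage genes tested none was called by limma in any phase comparison, with 0, 2 and 2 at an unadjusted p under 0.05 for G1 minus cycling, S minus G1 and S minus cycling. Of all 12078 probes, 3984, 3193 and 2734 were under it. Adgre1, a classical macrophage surface marker, read 9.15 to 10.49 in cycling cells, 12.65 and 11.99 on the G1 arrays numbered 1, 8.66 to 9.04 on the other G1 arrays and 11.49 to 12.30 in S. Wt_G1 number 1 was also the highest array for Igf1, Igfbp3, Igfbp5 and both Igfbp4 probes. Without it Igf2r (ILMN_2931096) and Igfbp6 were no longer called for G1 minus cycling. This loss was not particular to that array, since the 2 calls were lost in 19 and 17 of 27 alternatives. Of the fibroblast markers 4 of 9 rose in G1 against cycling (Lum by 5.75 ± 0.29, Pdgfra by 2.18 ± 0.36, Dcn by 2.10 ± 0.24 and Col3a1 by 0.80 ± 0.18) and Thy1 fell by 0.62 ± 0.17. Both epithelial markers tested rose, Krt14 by 1.28 ± 0.17 and Krt8 by 0.66 ± 0.17, and the cartilage gene Sox9 rose by 1.36 ± 0.20. Of the epithelial genes, 2 were detected throughout Wt_G1, 1 throughout Wt_S and none throughout a cycling or a KO group. Krt14 and Krt8 thus passed the filter for testing only through Wt groups, with G1 among them. For these genes the filter and the tests are therefore not independent. The epithelial list of 5 genes summed to 146.2 to 184.1 in cycling cells, 181.2 to 332.7 in G1 and 157.0 to 210.0 in S, and Krt5 was detected on no array. The part of other cells in the phase differences was not tested. Averaging arrays of a group that share a sex-linked gene left 1 of the 9 G1 minus cycling calls, Igfbp3 (4.52 ± 0.49, limma adjusted p = 0.0104), and none of the S minus G1 or S minus cycling calls, as did leaving out the arrays numbered 2.

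Other genes of the pathway were read as 4 lists, with the brightest tested probe of each gene. Their counts stand against 1.88% of all probes called for the genotype mean, 19.8% for G1 minus cycling, 11.4% for S minus G1 and 8.11% for S minus cycling. At an unadjusted limma p under 0.05 the genotype mean held 1521 of 12078 probes. Of the 9 genes that set IGF availability (proteases, their inhibitors and further carriers), 5 were tested, and Igfals, Igfbp1, Igfbpl1 and Stc1 were detected on no array. No gene of this list was called by limma for the mean genotype difference, where 3 had an unadjusted p under 0.05. Esm1, a secreted proteoglycan with an IGFBP-like domain, rose in G1 by 2.44 ± 0.16 and in S by 2.37 ± 0.17 against cycling cells (limma adjusted p = 2.64e-07 and 3.85e-06). Stc2, an inhibitor of the PAPP-A protease that cuts Igfbp4, rose in G1 by 1.10 ± 0.24 (limma adjusted p = 0.00504), and Kazald1, an IGFBP-related secreted protein, rose in S against G1 by 1.17 ± 0.28 (limma adjusted p = 0.0177) and against cycling by 1.20 ± 0.28 (limma adjusted p = 0.0188). The list median was 0.04 for G1 minus cycling against -0.05 over all probes.

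Of the 4 CCN family genes, which share an IGFBP-like domain, all 4 were tested and none was called by limma for the mean genotype difference, where 1 had an unadjusted p under 0.05. Ccn5 fell in G1 by 2.49 ± 0.48 and rose in S against G1 by 2.87 ± 0.54 (limma adjusted p = 0.00268 and 0.00521). Of 6 Igf2 mRNA-binding and imprinted regulators of IGF signalling, 4 were tested and 0 were called in any comparison by limma, nor did any have an unadjusted p under 0.05, and Ins2 and Plagl1 were detected on no array.

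Of 26 signalling genes below the IGF and insulin receptors, 14 were tested and 8 were detected on no array. Pik3cb, a catalytic subunit of PI3 kinase, was the 1 gene called for genotype, 0.85 ± 0.16 higher in KO cells (limma adjusted p = 0.0101). In G1 against cycling 3 of 14 were called, near the share of all probes. Of these 2 rose, Foxo1 by 1.47 ± 0.24 and Irs2 by 0.64 ± 0.16 (limma adjusted p = 0.000947 and 0.0120), and Grb14, an adaptor that inhibits the insulin receptor, fell by 1.08 ± 0.22 (limma adjusted p = 0.00410). In S against G1, 4 of 14 were called, and the receptor substrate Irs2 fell by 1.84 ± 0.18 (limma adjusted p = 0.000131), the transcription factor Foxo1 by 1.06 ± 0.27 and Pik3cb by 0.92 ± 0.20, and Grb14 rose by 1.24 ± 0.25 (limma adjusted p = 0.0249, 0.0109 and 0.00798). In S against cycling, 2 of 14 were called, and Irs2 fell by 1.20 ± 0.18 and Pik3cb by 0.71 ± 0.20 (limma adjusted p = 0.00115 and 0.0411). The list median was 0.01 for genotype, -0.08 for G1 minus cycling, -0.14 for S minus G1 and -0.23 for S minus cycling.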

How the data were processed

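RNA was labelled as biotinylated cRNA and hybridised to single-colour arrays, per the labels' protocols, and read with BeadStudio 3.0, per the submitters' processing notes. The deposited non-normalized file holds, per the file headers, an average intensity for each probe on each array together with its detection p-value. Array means ran from 393.8 to 776.1, and 9970 to 12354 probes (38.8% to 48.1%) were detected per array. A further table of the authors gives linear intensities with array medians of 118.12 to 118.37, and its normalization and centring are not given in the sources used here. Its probe order on each array matched the first file (rank correlation 1). It was used as an alternative. Precision is limited by how many arrays there are.

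Intensities were corrected with limma's neqc (normexp on the detection p-values, offset 16, quantile normalization, log2) in R 4.3.3 with limma 3.58.1 and statmod 1.5.0. The tests took 12078 probes of 8428 genes, those detected (p under 0.01) throughout any 1 of the 6 groups. A mean per group was fitted to all 16 arrays with lmFit and eBayes, two-sided, with Benjamini-Hochberg adjustment over these probes. A call is an adjusted p under 0.05. On simulated data for the mean genotype difference over 12078 probes, 79% of log2 changes of 1 and 98% of changes of 2 were recovered, against 17% and 78% in S alone. False calls made up 1.3% (S minus cycling) to 10.6% (S minus G1) of the simulated calls. The simulated noise was independent between arrays, without pairs, litters or arrays that cluster by sex-linked gene. Recovery for arrays that cluster as these do is therefore not shown. The probe table gave 1 symbol for 23978 probes of 16593 genes.

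The pairing of Wt and KO samples comes from the series description. Within a phase, deviations of same-numbered arrays had correlations of 0.197, 0.189 and 0.388 for cycling pairs 1 to 3, of 0.423, 0.403 and 0.357 for the G1 pairs and of 0.0646 for the S pairs. Across phases the number was not taken as a line, since arrays of 1 number differed in their detected sex-linked gene.

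All probes of the 10 genes are accounted for, and of each list the called genes are named, at most 8 per comparison. Members and lists were chosen with earlier results of these data known. Alternatives covered the normalization, the authors' table, the detection filter, blocks, weights and left-out arrays. Sequences are RefSeq's on GRCm38.p6, found for all 10 genes in 14 windows.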

Additional observations from a re-analysis of the deposited data

How the results depend on the processing

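The 21 called member results kept their sign in all 533 alternative values, of which 125 were not called. Of the 109 uncalled member results, 36 were called under some alternative and 47 changed sign under some. For the genotype mean (1 member probe called), the count was 2 with the authors' table or with detection on every array, 5 with the replicate block of pairs within a phase, 3 with the replicate block of the number over all phases, 7 with array quality weights, 4 without the arrays KO_G1 1 and Wt_cycling 3, 4 with the sex-linked gene as a block and 0 with same-gene arrays averaged. Leaving out 1 array or number gave 0 to 4, with 0 without number 2, 4 without KO_G1 1, 3 without Wt_G1 1 or 3, and 2 without Wt_cycling 3, KO_cycling 3, Wt_G1 2 or number 3. Over all tested probes the genotype mean had 227 calls, against 398 with the pair block, 2703 with weights, 1124 without both these arrays, 424 with the sex-linked block and 0 with same-gene arrays averaged.

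In cycling cells (1) the count was 0 with median scaling, 4 with weights, 0 with same-gene arrays averaged and 0 to 2 on leaving out arrays, the lowest without KO_cycling 1 or 2. In G1 (0) it was 2 with weights. In S (1) it was 0 with median scaling, with the pair block and with same-gene arrays averaged, 7 with weights, 8 with the S arrays fitted alone and 0 on leaving out any S array. Weights gave 1, 1 and 2 member calls for the differences of the genotype effect between phases, with 0 otherwise. Under weights the Igfbp5 effect differed by 0.94 between G1 and cycling and by -1.32 between S and G1 (limma adjusted p = 0.0174 and 0.00350).

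For G1 minus cycling (9) the count was 5 with median scaling, 1 with the slide as a block, 1 with same-gene arrays averaged and 1 to 9 on leaving out arrays, with 1 without number 2, 3 without number 1 and 5 without Wt_cycling 1, KO_cycling 1 or KO_cycling 2. With the pair block, Igf2r (ILMN_2931096) and Igfbp6 were no longer called (limma adjusted p = 0.0857 and 0.0949), nor was Igf1 for S minus cycling (0.0529). For S minus G1 (3) it was 5 with the number block or the sex-linked block, 10 with weights, 0 with same-gene arrays averaged and 0 to 4 on leaving out arrays. For S minus cycling (6) it was 0 with the slide as a block or same-gene arrays averaged, 11 with weights, 10 without KO_G1 1 and Wt_cycling 3 and 0 to 7 on leaving out arrays. The lowest counts of both came without number 2. Leaving out number 1 or number 2 leaves 1 array per S group, assumed to vary like the other groups. The cause of these shifts was not tested, and averaging and leaving out also leave fewer arrays. Levels near background limit Igfbp3 in cycling cells. The pair block and the other settings changed no other count by over 1.5 times. Counts over all probes are given only for some settings of the genotype mean and for the slide block. The other member counts under alternatives have no such share beside them and are no result about the members.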
